A study of Mus musculus with 4 samples.

Results

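High-Nppb cardiomyocytes are heart muscle cell nuclei with at least 3 unique molecular identifiers (UMIs) of Nppb, the gene of B-type natriuretic peptide. They were chosen from single-nucleus RNA libraries of mouse heart by 4 criteria: at least 2000 UMIs, no more than 5% mitochondrially encoded UMIs, at least 4% of UMIs from Ttn, Myh6, Ryr2, Tnnt2, Actn2, Mybpc3 and Ctnna3 together, and at least 3 Nppb UMIs. In all, 1297 of 41706 barcodes met them, out of 6387 nuclei that met the 3 cardiomyocyte criteria. They were compared within each library with the 3740 cardiomyocytes that held 0 Nppb UMIs, called zero-Nppb nuclei here. The remaining 1350 cardiomyocytes held 1 or 2. Because Nppb and the 7 other genes chose the nuclei, their values are given as descriptions only and they were left out of all gene tests.

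The study compared hearts labelled Pkp2 cKO (PKP2fl/fl MCM cre/+, with floxed Pkp2, the gene of the desmosome protein plakophilin 2) with control hearts (MCM cre/+). All mice were 8 weeks old and received tamoxifen, and hearts were collected 2 weeks later. Each group had 2 libraries, and each library pooled hearts of 2 mice, 1 male and 1 female, so a library is the replicate and its nuclei are not. The sample titles name the Cre line MCM in controls too, whereas the genotype label of the controls reads wt; neither the promoter that drives the Cre nor the part of Pkp2 between the loxP sites is given in the sources used here. Effects of Pkp2 and of any difference in the Cre transgene cannot be told apart.

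The natriuretic peptide genes Nppb and Nppa are neighbours that encode hormones released from heart muscle. Atrial muscle makes the A-type peptide throughout life, and ventricular muscle makes both peptides mainly before birth and again under stretch or overload. Both peptides act on guanylyl cyclase receptors and promote the loss of salt and water and the relaxation of vessels. Raised levels of Nppb, Nppa, Ankrd1 and Acta1 are widely used as marks of the fetal or stress programme of ventricular muscle.

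Libraries held 5947 to 14238 barcodes and 13491201 to 40536562 UMIs. Of the barcodes, 48.8% to 53.8% were above the mitochondrial limit, and 1101 to 2477 nuclei per library met the cardiomyocyte criteria. Any 2 libraries shared 0 to 2 cell barcodes. Pkp2 itself measured 662 and 703 CPM (UMIs scaled to a common library total) in the high-Nppb nuclei of control 1 and control 2 and 622 and 582 in those of cKO 1 and cKO 2. These levels do not check the deletion, since the deleted part is not known, and the libraries are named by their labels.

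High-Nppb nuclei made up a small share of control cardiomyocytes and a far larger share of cKO cardiomyocytes. In control 1, 85 of 1324 cardiomyocytes were high-Nppb, or 6.42% (95% exact binomial interval 5.16 to 7.88). In control 2, 85 of 2477 were, or 3.43% (2.75 to 4.23). In cKO 1, 530 of 1101 were, or 48.1% (45.1 to 51.1), and in cKO 2, 597 of 1485 were, or 40.2% (37.7 to 42.7). Both cKO libraries were far above both controls. The means were 4.93% ± 2.11 (SD, n = 2) and 44.2% ± 5.61, a difference of 39.2 percentage points. The two-sided exact permutation test gave p = 0.333, the smallest p that 2 against 2 libraries allow. As Nppb chose these nuclei, the shares restate its level and are no separate result.

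Depth differed between libraries, so the shares were also taken with every nucleus thinned to 2000 UMIs; no nucleus was left out, since all had at least that many. With at least 2 Nppb UMIs after thinning they were 5.74% and 2.26% in the controls and 37.2% and 23.6% in the cKO libraries. With at least 3 after thinning they were 2.27% and 0.44% in the controls and 24.5% and 13.1% in the cKO libraries. Free RNA can place UMIs in nuclei that do not make a transcript. Among nuclei with under 1% of their UMIs from the 7 cardiomyocyte genes, those with at least 3 Nppb UMIs numbered 0 of 88, 1 of 738, 2 of 596 and 3 of 2208 in control 1, control 2, cKO 1 and cKO 2. By 3 counts of the total, the count of 0 of 88 allows a share of up to 3.41%. These nuclei were shallower, with a median of 2352 to 2738 UMIs against 3610.5 to 5904 in cardiomyocytes. Intervals and limits cover counting error only.

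**Figure D1:**
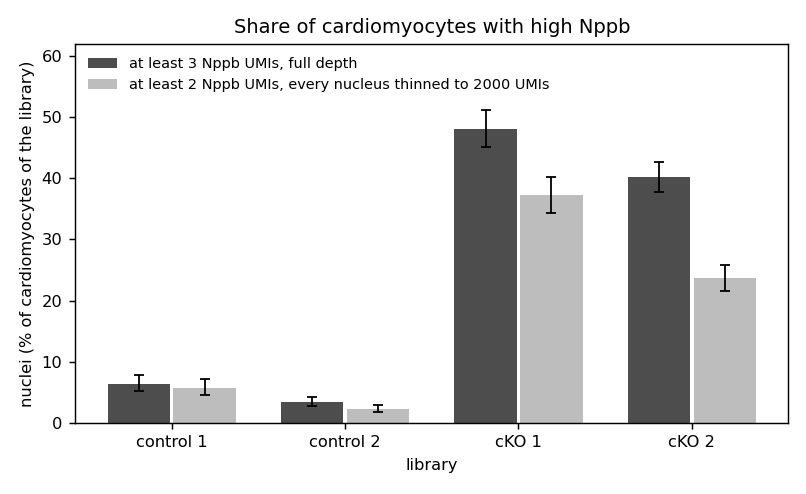
Share of cardiomyocytes with high Nppb in each library (x axis), as a percentage of the library's cardiomyocytes (y axis). Dark bars count nuclei with at least 3 Nppb UMIs at full depth. Light bars count those with at least 2 after thinning every nucleus to 2000 UMIs, a lower limit. Error bars are 95% exact binomial intervals. Both cKO libraries stand above both control libraries by either count, at 48.1% and 40.2% against 6.42% and 3.43% at full depth.

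Nppb UMIs also ran to higher numbers within the cKO members. The median high-Nppb nucleus held 4 and 3 Nppb UMIs in control 1 and control 2 and 6 and 5 in cKO 1 and cKO 2, and the highest single nucleus held 14, 13, 91 and 55. Nuclei with at least 10 Nppb UMIs numbered 2 and 1 in the controls against 153 and 119 in the cKO libraries. Summed over members, Nppb made up 810 and 537 CPM in the controls and 1402 and 932 in the cKO libraries. Of all Nppb UMIs found in cardiomyocytes, 51.7% and 37.1% lay in members in the controls and 92.8% and 87.5% in the cKO libraries.

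Independent markers fitted the name cardiomyocyte. Tnni3, Pln and Cacna1c, which encode cardiac troponin I, the calcium pump regulator phospholamban and the L-type calcium channel and were not part of the criteria, measured 868 to 1641, 1670 to 1918 and 5523 to 6884 CPM in the high-Nppb nuclei. None of them passed the test between high-Nppb and zero-Nppb nuclei (log2 fold changes 0.02, -0.07 and -0.10). By Myl2 and 3 atrial genes the members were of ventricular type. Sln, Myl7 and Myl4, light chain and sarcolipin genes of the atrium, summed to 4 to 11 CPM in them. The ventricular light chain gene Myl2 measured 1190 to 2193 CPM, and 0 members in any library had more UMIs of the 3 atrial genes than of Myl2. The fuller marker lists were mixed between high-Nppb and zero-Nppb nuclei. Of 9 ventricular markers tested 1 rose (Myl2) and 1 fell (Mylk3). Of 4 atrial markers tested 1 rose (Pam) and 0 fell.

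Markers of most other heart cell types were at or below their level in zero-Nppb nuclei. Summed over 10 fibroblast markers, high-Nppb nuclei measured 180 to 304 CPM and zero-Nppb nuclei 236 to 432 CPM, lower in members in every library. The 10 endothelial markers gave 273 to 333 and 341 to 392 CPM, again lower in every library. The 9 macrophage markers gave 47 to 84 and 81 to 119 CPM, with 1 library higher in members. No marker of these 3 lists was at 0 in either class. The other way went a pair of lists in all 4 libraries. The 5 endocardial markers summed to 502 to 581 CPM against 402 to 500, most of it from Hmcn1, and the 4 adipocyte markers summed to 106 to 138 against 72 to 104 CPM, most of it from Pparg. Whether other cell types play a part in the results below was not tested beyond leaving out nuclei that hold such markers.

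The libraries were summed per class and tested with edgeR's quasi-likelihood test with library as a block; SE denotes the standard error and adjusted p is by Benjamini-Hochberg over all 12142 genes tested, with a threshold of 0.05. Of these genes 875 passed (7.21%), 455 higher in high-Nppb nuclei (3.75%) and 420 lower (3.46%), and 783 of the 875 had the same sign in all 4 libraries, which 24.0% of all genes tested had. DESeq2 called 425 (3.5%). For 4.85% of all genes tested the 4 high-Nppb values lay on 1 side of the 4 zero-Nppb values. The median log2 fold change over all genes tested was 0.01. Members were deeper than zero-Nppb nuclei of their library, with medians of 4853, 6492, 5421.5 and 6830 UMIs against 3492, 4152, 4353.5 and 5175 in control 1, control 2, cKO 1 and cKO 2. With zero-Nppb nuclei drawn to match the members in UMIs, 412 genes passed. Of the 781 calls that could be tested there, 780 kept their direction. The members were the same and the drawn nuclei were part of the same zero-Nppb nuclei, so kept direction is no separate result. Without cKO 1 or cKO 2, 550 and 548 genes passed.

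Nppa (ENSMUSG00000041616, GRCm38 chromosome 4, 148000722 to 148002079, plus strand), the gene of the A-type peptide, measured 72.8, 40.3, 139 and 197 CPM in the high-Nppb nuclei of control 1, control 2, cKO 1 and cKO 2. In zero-Nppb nuclei it measured 5.30, 7.87, 11.2 and 15.8 CPM. All high-Nppb values were above all zero-Nppb values, and the log2 fold change was 3.37 (SE 0.16, edgeR adjusted p = 1.68e-14). It was the largest rise among named genes. Even so, few nuclei held an Nppa UMI: 9.41%, 9.41%, 22.1% and 26.6% of members against 2.05%, 2.59%, 3.75% and 6.77% of zero-Nppb nuclei. Thinned to 2000 UMIs, the shares were 3.53%, 2.35%, 14.2% and 14.4% of members, 1.33%, 1.37%, 1.25% and 4.02% of zero-Nppb nuclei and 0%, 2.44%, 2.68% and 2.99% of the nuclei outside the cardiomyocyte range. In control 2 the thinned member share was no higher than in nuclei that should lack the gene and is read as background. In control 1 it rested on 3 members, against 0 of 88 of those nuclei, so no difference could be read at this depth.

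Nppb (ENSMUSG00000029019, chromosome 4, 147985788 to 147987205) ends 13517 bases before Nppa begins, on the same strand. Of 14 genes listed around this pair, 8 could be tested and Nppa alone passed; the other 7 had log2 fold changes from 0.05 to 0.58. Of 10 tested genes of the natriuretic peptide pathway 2 rose and 1 fell. Corin, the protease that activates the A-type peptide, fell by 0.20 on the log2 scale (SE 0.05, edgeR adjusted p = 0.00395), with 1348, 1668, 1103 and 1384 CPM in members and 1623, 1915, 1243 and 1577 CPM in zero-Nppb nuclei. Prkg1, the kinase activated by the receptors' second messenger cyclic GMP, passed with a log2 fold change of 0.22 (adjusted p = 0.0334). That call rests on the controls: it was lost without control 1 (0.14) and without control 2 (0.12). Npr1, the receptor gene, measured 5.26 to 9.52 CPM in members and 10.6 to 13.8 CPM in zero-Nppb nuclei and did not pass (adjusted p = 0.123).

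Ankrd1 (ENSMUSG00000024803, chromosome 19, 36111961 to 36120099, minus strand) encodes a titin-binding ankyrin repeat protein that responds to load. It measured 1392, 1536, 2328 and 2103 CPM in high-Nppb nuclei and 462, 374, 1030 and 785 CPM in zero-Nppb nuclei. The classes did not overlap, and the log2 fold change was 1.54 (SE 0.08, edgeR adjusted p = 4.15e-14). After thinning, 74.1%, 70.6%, 85.8% and 82.4% of members held an Ankrd1 UMI, against 34.9%, 33.96%, 52.2% and 49.7% of zero-Nppb nuclei and 14.5% to 18.5% of the nuclei outside the cardiomyocyte range. Its rise passed under all 20 alternatives that tested it, with log2 fold changes from 1.24 to 1.81.

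The upstream sequences of Nppb, which chose the nuclei, and of Nppa and Ankrd1, which rose in them, are shown because all 3 are textbook examples of load-responsive genes. Each run is the 250 bases before the RefSeq start (RefSeq, GRCm38.p6), 5′ to 3′ on the gene's strand. Capitals mark matches on either strand to CATTCC, known as the MCAT element and bound by TEAD factors, and to AGATAA, an element of GATA factors. The search also covered AP-1 (TGACTCA or TGAGTCA, which are the reverse complements of each other) and the cyclic AMP element TGACGTCA, neither of which overlaps the others.
Nppb, chr4:147985650-147985899, plus strand: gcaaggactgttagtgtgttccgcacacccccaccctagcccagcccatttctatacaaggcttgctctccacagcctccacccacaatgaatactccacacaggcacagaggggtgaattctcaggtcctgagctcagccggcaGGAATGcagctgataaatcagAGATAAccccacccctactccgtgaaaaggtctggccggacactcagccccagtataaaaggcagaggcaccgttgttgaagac
Nppa, chr4:148000472-148000721, plus strand: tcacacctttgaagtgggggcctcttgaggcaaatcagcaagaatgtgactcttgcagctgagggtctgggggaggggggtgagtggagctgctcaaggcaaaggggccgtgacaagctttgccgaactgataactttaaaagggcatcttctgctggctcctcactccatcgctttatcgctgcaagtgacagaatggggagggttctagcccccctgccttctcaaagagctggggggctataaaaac
Ankrd1, chr19:36119845-36120094, minus strand: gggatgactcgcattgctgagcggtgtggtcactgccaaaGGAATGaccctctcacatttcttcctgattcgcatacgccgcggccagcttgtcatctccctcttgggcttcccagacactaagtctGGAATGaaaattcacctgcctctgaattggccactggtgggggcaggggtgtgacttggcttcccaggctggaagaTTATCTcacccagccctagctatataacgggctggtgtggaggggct
The Nppb window held 1 MCAT match, 105 bases before the start, and 1 GATA match, 84 bases before it. The Ankrd1 window held 2 MCAT matches, at 210 and 123 bases, and 1 GATA match at 47 bases. In the Nppa window these letters were not found. Over all 32851 RefSeq windows of this length, 12.6% held the MCAT letters, 4.46% AP-1, 1.55% the cyclic AMP element and 9.99% GATA. Of the 15 genes named as higher, 13 had windows, 15 in all: 4 held MCAT (of Acta1, Ankrd1, Gdf15 and Otud1), 0 AP-1, 1 the cyclic AMP element (of Btg2) and 3 GATA (of Ankrd1 and Slc24a2). Of 14 windows of 8 genes named as lower, 2 held MCAT, 0 AP-1, 0 the cyclic AMP element and 4 GATA. A match describes letters and is no measure of binding.

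The fetal and stress programme was higher as a group. Of 24 genes on that list 21 were tested, 16 rose and 0 fell (background 3.75% and 3.46%), with a median log2 fold change of 0.92. Acta1, the skeletal form of alpha-actin that fetal hearts express, measured 81.6, 66.6, 107 and 103 CPM in high-Nppb nuclei and 13.8, 11.8, 36.1 and 28.6 CPM in zero-Nppb nuclei. All member values were above all others, and its log2 fold change was 2.00 (SE 0.15, edgeR adjusted p = 1.31e-10). Xirp2, an actin-binding protein of the intercalated disc, measured 1798, 2432, 1863 and 2666 CPM against 857, 1020, 922 and 1188 CPM. Its classes were apart as well, at 1.13 on the log2 scale (SE 0.05, adjusted p = 2.12e-15). Ankrd23, a relative of Ankrd1 at titin, rose from 94.1 to 137 CPM across zero-Nppb sums to 246 to 279 CPM (1.19), and Clu, a secreted chaperone, rose by 0.96. Actc1, the cardiac form of alpha-actin, rose by 0.65. Reads of Acta1 and Actc1, which are near-identical in sequence, may have been counted for either gene.

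Myh7, the slow myosin heavy chain and a standard member of that programme, did not follow. It measured 344, 396, 1391 and 1060 CPM in high-Nppb nuclei and 296, 218, 1619 and 1210 CPM in zero-Nppb nuclei. It was higher in members in both controls and lower in both cKO libraries, with a log2 fold change of 0.06 over all (SE 0.10, adjusted p = 0.855). Without control 2 the value was -0.14 (adjusted p = 0.293). Myh7 and Myh6 are near-identical neighbours, so their counts are uncertain in the same way.

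**Figure D2:**
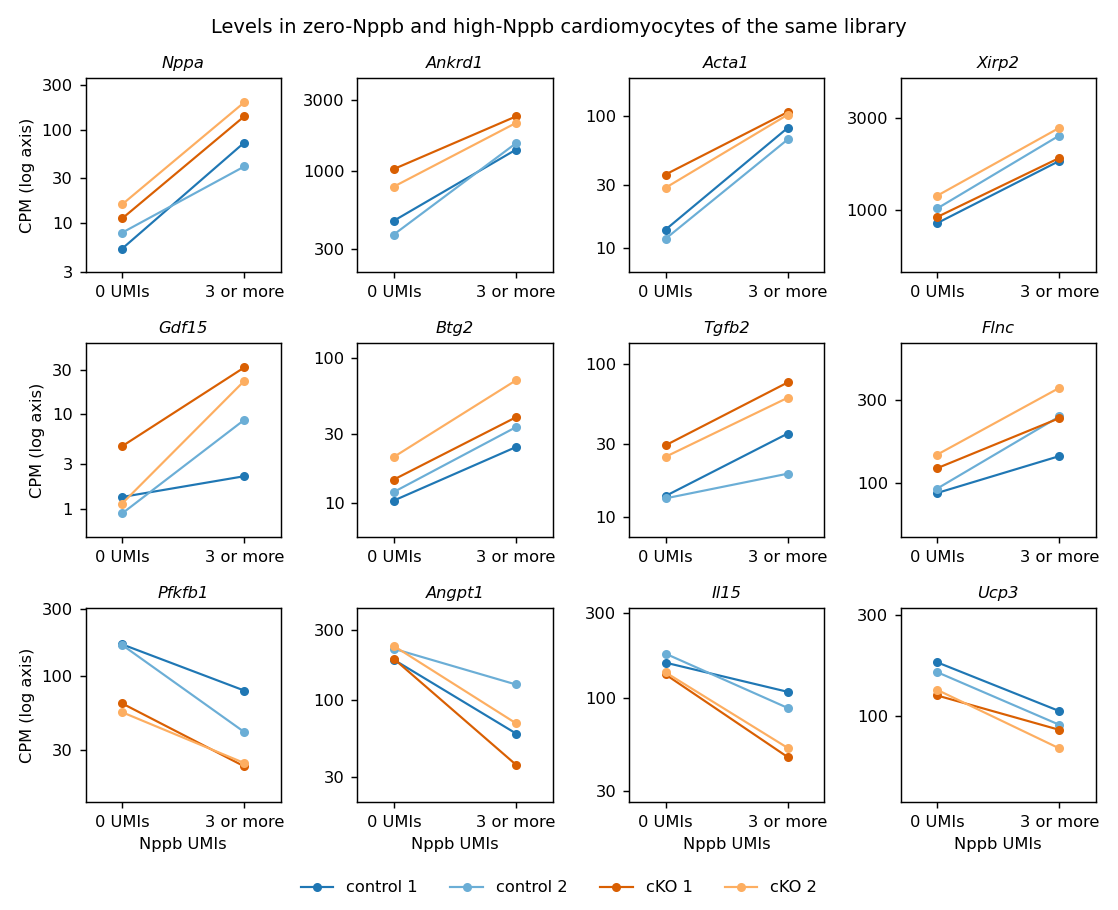
CPM on a log axis in zero-Nppb (0 UMIs) and high-Nppb (3 or more) cardiomyocytes for 12 genes; each line joins the summed values of the 2 classes in a library, coloured by library. Lines rise for Nppa, Ankrd1, Acta1, Xirp2, Gdf15, Btg2, Tgfb2 and Flnc and fall for Pfkfb1, Angpt1, Il15 and Ucp3 in each of the 4 libraries. The Gdf15 member values of control 1 and control 2 rest on 1 and 5 UMIs.

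Genes of the infarct border zone and of dedifferentiating muscle, mostly cytoskeletal, rose in part: 8 of 21 tested rose and 1 fell (Dab2, -0.66), with a median of 0.26. Enah, which extends actin filaments, measured 690, 733, 989 and 981 CPM in members and 362, 331, 573 and 479 CPM in zero-Nppb nuclei, all members above all others (log2 fold change 0.97, SE 0.06, edgeR adjusted p = 1.77e-12). Flnc, the muscle filamin, rose by 1.13 and Sorbs2, a Z-disc adaptor, by 0.68. Sarcomere genes showed smaller steps, with 9 of 24 higher, 0 lower and a median of 0.15; Tnnc1 (cardiac troponin C) rose by 0.65, Pdlim5 by 0.53 and Myom1 (myomesin) by 0.30. Of 21 intercalated disc genes tested 6 rose and 1 fell. Nrap rose by 0.65 and Des (desmin) by 0.68, and the gene that fell was Dsg2, the desmosomal cadherin desmoglein 2, at 318, 205, 258 and 218 CPM in members and 382, 360, 361 and 346 CPM in zero-Nppb nuclei (log2 fold change -0.56, SE 0.07, adjusted p = 2.44e-06). Its classes did not overlap. Of 24 integrin and costamere genes 6 rose and 1 fell, among them Itga5 (0.59), Tln1 (0.52) and Dmd (0.26), which encode integrin alpha 5, talin and dystrophin.

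Immediate early genes, which are induced within minutes to hours of many stimuli, were higher in 8 of 15 tested and lower in 0, with a median of 0.74. Btg2, an antiproliferative factor, measured 24.3, 33.3, 39.0 and 70.3 CPM in members and 10.3, 11.9, 14.5 and 20.7 CPM in zero-Nppb nuclei. The classes were apart, with a log2 fold change of 1.57 (SE 0.17, edgeR adjusted p = 1.24e-07). After thinning, 8.24%, 4.71%, 6.42% and 10.7% of members held a Btg2 UMI. The shares were 1.94%, 2.18%, 4.06% and 4.44% of zero-Nppb nuclei and 4.55%, 4.88%, 4.53% and 6.84% of nuclei outside the cardiomyocyte range. In control 2 the member share was no higher than in the latter, so no rise could be read there at this depth. Ier5 rose by 1.12 and Fosl2, an AP-1 subunit, by 0.87. Egr1 (1.97) and Atf3 (1.74), a pair of stimulus-induced transcription factors, passed only with cKO 2, where they measured 36.2 and 24.1 CPM in members against 6.41 and 3.01 CPM in zero-Nppb nuclei. Without cKO 2 their log2 fold changes were 1.45 (adjusted p = 0.105) and 0.66 (adjusted p = 0.709). No gene of the calcineurin, MEF2 and MAPK feedback list passed among 18 tested, at a median of -0.02, although Rcan1, a calcineurin inhibitor counted with the stress programme, rose by 1.12. Cardiac transcription factors were likewise 0 of 26, at a median of -0.06.

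Genes on the list of secreted growth factors were mixed, with 6 of 20 tested higher and 3 lower. Gdf15, a stress-induced cytokine of the TGF-beta superfamily, measured 2.21, 8.77, 31.6 and 22.8 CPM in members and 1.33, 0.887, 4.60 and 1.13 CPM in zero-Nppb nuclei. The classes overlapped through control 1, and the log2 fold change was 3.12 (SE 0.36, edgeR adjusted p = 5.39e-07). The control values in members rest on 1 UMI in control 1 and 5 in control 2, all in nuclei with 3 or 4 Nppb UMIs. After thinning, 1 of 85 members held a Gdf15 UMI in each control. In control 1 this share, 1.18%, was close to the 1.14% of nuclei outside the cardiomyocyte range, so no rise could be read there at this depth. Tgfb2 rose by 1.22, Hbegf, a heparin-binding growth factor, by 1.14, the matricellular gene Ccn2 by 0.98 and Vegfa, the main angiogenic factor, by 0.42. After thinning, 5.88%, 2.35%, 9.25% and 7.87% of members in control 1, control 2, cKO 1 and cKO 2 held a Tgfb2 UMI. The shares were 2.15%, 2.69%, 4.69% and 3.38% of zero-Nppb nuclei and 7.95%, 11.1%, 6.38% and 7.43% of nuclei outside the cardiomyocyte range. In control 2, with 2 such members, the member share was below both others, so no rise of Tgfb2 could be read there at this depth. With Ccn1 (0.85), Tgfb2 and Ccn2 were the 3 that rose of 15 tested YAP and load targets, of which 0 fell. Angpt1, angiopoietin 1, the ligand of the endothelial receptor Tie2, went the other way. It measured 59.6, 128, 36.5 and 69.8 CPM in members and 189, 224, 191 and 234 CPM in zero-Nppb nuclei, without overlap (log2 fold change -1.72, SE 0.13, adjusted p = 2.52e-10). Fgf12, on that list although its protein modulates sodium channels inside the cell, fell by 2.70. That call was lost without cKO 2 (-1.67, adjusted p = 0.0817).

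**Figure D3:**
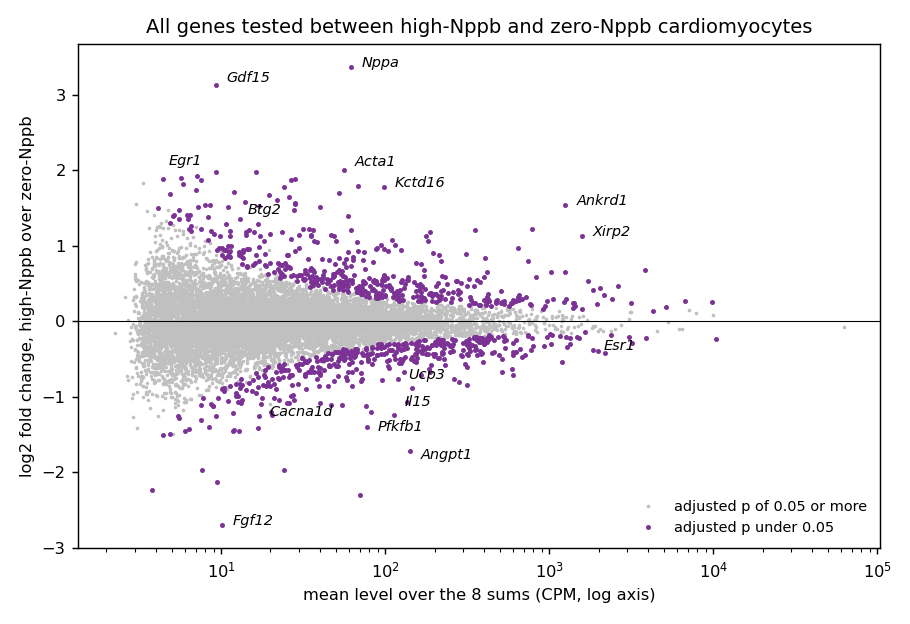
Log2 fold change of high-Nppb over zero-Nppb cardiomyocytes (y axis) against the mean level over the 8 sums in CPM (log x axis) for the 12142 genes tested; purple points have an edgeR adjusted p under 0.05. Nppa and Gdf15 lie highest among the labelled genes, at 3.37 and 3.12, and Ankrd1 and Xirp2 stand apart among abundant transcripts.

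The other genes named as higher were Kctd16, a subunit associated with GABA-B receptors (1.77), Tnfrsf12a, the receptor of the cytokine TWEAK (1.64), the deubiquitinase gene Otud1 (1.61), Gadd45g (1.52), the transcriptional inhibitor Id2 (1.51), the sodium, calcium and potassium exchanger gene Slc24a2 (1.51), AW822252 (1.92) and Nxph1, a neurexin ligand (1.87). Kctd16 was the most abundant of them, at 176, 105, 143 and 186 CPM in members and 33.7, 32.0, 33.5 and 72.4 CPM in zero-Nppb nuclei, without overlap (SE 0.12, edgeR adjusted p = 3.74e-11). In control 2 its 60 UMIs lay in the 71 members with 3 or 4 Nppb UMIs, and the 14 members with 5 or more held 0. Calls for AW822252 (1.58) and Nxph1 (1.29) were lost without control 2. Slc24a2 kept its call without control 2, at 0.94, and reached 2.31 without cKO 2, but its log2 fold change was 0.0013 without nuclei that held other cell types' markers. In control 1 its level was uneven among members: 32 of its UMIs lay in the nuclei with 3 or 4 Nppb UMIs and 5 in those with 5 or more.

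Of 28 fatty acid oxidation genes tested 0 rose and 8 fell, with a median of -0.20. Ucp3, a mitochondrial carrier induced by fatty acids, measured 106, 91.2, 86.3 and 70.5 CPM in members and 180, 162, 125 and 133 CPM in zero-Nppb nuclei, without overlap (log2 fold change -0.77, SE 0.09, edgeR adjusted p = 6.94e-07). Acadm, the medium-chain acyl-CoA dehydrogenase gene, fell by 0.35 and Acsm5, an acyl-CoA synthetase gene, by 1.22. The Acsm5 call was lost without control 1 (-1.03) and without cKO 2 (-0.94). Of 23 glycolysis genes 5 rose and 3 fell, at a median of 0.24. Pfkp, the platelet form of phosphofructokinase, measured 72.8, 80.7, 170 and 175 CPM in members and 42.4, 42.5, 78.8 and 84.4 CPM in zero-Nppb nuclei, higher in members in each library (1.01, SE 0.09, adjusted p = 1.03e-08). Pfkfb1, an isoform of the enzyme that sets fructose 2,6-bisphosphate, fell. Its levels were 79.4, 40.3, 23.0 and 24.3 CPM in members and 169, 167, 64.4 and 55.8 CPM in zero-Nppb nuclei (-1.40, SE 0.13, adjusted p = 4.93e-09). Genes of nuclear-encoded oxidative phosphorylation showed no calls among 20 tested, with a median of 0.04.

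Ion channel genes were lower more often than higher, with 1 of 20 tested rising and 5 falling at a median of -0.25. Kcnj3, a subunit of the acetylcholine-gated potassium channel, measured 247, 312, 167 and 194 CPM in members and 452, 491, 304 and 369 CPM in zero-Nppb nuclei, lower in each library (-0.84, SE 0.07, edgeR adjusted p = 4.27e-10). Its partner Kcnj5 fell by 0.67, a call lost without cKO 1 (-0.60) and without cKO 2 (-0.76), and the chloride channel gene Clcn1 fell by 1.08. Slit2, a guidance factor gene on the conduction system list, fell by 0.60. That call was lost without cKO 1 (-0.41) and without control 2 (-0.63). Calcium handling was divided, with 3 genes higher and 3 lower of 17 tested. Slc8a1, the sodium-calcium exchanger, rose by 0.27, whereas Strit1, which encodes a small activator of the calcium pump, fell by 1.10 at 2.23 to 10.5 CPM in members; that call was lost without any of control 1 (-1.11), cKO 1 (-1.01) or cKO 2 (-0.95).

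The other genes named as lower included Il15, a cytokine gene, which measured 108, 87.7, 46.4 and 52.2 CPM in members and 158, 177, 135 and 139 CPM in zero-Nppb nuclei. The classes did not overlap (-1.25, SE 0.11, edgeR adjusted p = 5.53e-09). Iigp1, an interferon-induced GTPase gene, fell by 1.12 and was lower in members of every library, at 38.4 to 56.1 CPM against 95.7 to 115 CPM. BC023105 (-2.13), the cytochrome P450 gene Cyp4b1 (-1.45), Lrp4 (-1.26), Smco1 (-1.24), Klhl33 (-1.11), the ephrin gene Efnb3 (-1.09) and Rp1 (-1.09) fell as well; Rp1 stood at -0.72 without cKO 1. Cacna1d, an L-type calcium channel gene, fell by 1.25 and lost its call without cKO 2 (-0.63). Papss2, which makes the sulfate donor of the cell, fell by 1.12 and lost its call without cKO 1 (-0.89) and without cKO 2 (-1.29).

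Stress and survival lists had few calls outside the chaperones. Of 17 chaperone and proteostasis genes tested 6 rose and 0 fell, at a median of 0.29, among them the small heat shock genes Hspb1 (0.77), Cryab (0.58) and Hspb7 (0.49) and Hsp90aa1 (0.58). Bcl2, an inhibitor of apoptosis, was the only call of 12 cell death genes tested, at 15.4, 40.3, 47.3 and 59.8 CPM in members and 8.49, 10.9, 21.7 and 19.2 CPM in zero-Nppb nuclei, higher in each library (1.47, SE 0.18, edgeR adjusted p = 8.23e-07). The p53 target list had 1 call of 12, Gdf15, which is also on the integrated stress response list, where Atf4 (0.53) was the other gene that rose of 9 tested and 1 fell. Of 14 inflammation genes 4 rose and 0 fell, with Tlr4, a pattern recognition receptor, at 0.83 and Stat3 at 0.42. Of 10 hypoxia genes 2 rose, Vegfa and P4ha1 (0.51), and 0 fell; the P4ha1 call was lost without cKO 1 (0.48) and without cKO 2 (0.44).

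The classes were also compared in each genotype alone. With each group fitted alone, on 11207 genes tested in both, 296 passed in the controls and 953 in the cKO libraries. They shared 214 genes, which is 72.3% of the control calls and 22.5% of the cKO calls, and 212 of these had the same sign. Called or not in the other group, 281 of the 296 and 845 of the 953 had the same sign there. The share with the same sign over all 11207 genes was not computed, so these counts stand without a background. The 85 nuclei of each control library gave sums of 461590 and 590392 UMIs without Nppb, against 3156055 and 4413867 in the cKO libraries, so the controls carried less precision.

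Nuclei just inside and just outside the limit are given side by side. With 3 Nppb UMIs, Ankrd1 measured 1256, 1120, 1636 and 1660 CPM in control 1, control 2, cKO 1 and cKO 2, and with 2 UMIs it measured 1097, 862, 1537 and 1248 CPM. Nppa measured 35.5, 29.95, 25.96 and 81.1 CPM with 3 UMIs and 11.8, 30.6, 34.05 and 42.2 CPM with 2. Kctd16 measured 154, 80.9, 137 and 148 CPM with 3 and 111, 58.2, 107 and 131 CPM with 2. Ankrd1 and Kctd16 were higher inside the limit in every library, and Nppa in control 1 and cKO 2. Xirp2 measured 1369, 2148, 1008 and 1887 CPM with 3 UMIs and 1378, 1604, 1094 and 1429 CPM with 2. It was thus higher inside the limit in control 2 and cKO 2 only. Acta1 and Btg2 were lower inside the limit in cKO 1 and higher in the other libraries. The cKO nuclei with at least 10 Nppb UMIs held 232 and 369 CPM of Nppa and 3154 and 2908 CPM of Ankrd1.

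**Figure D4:**
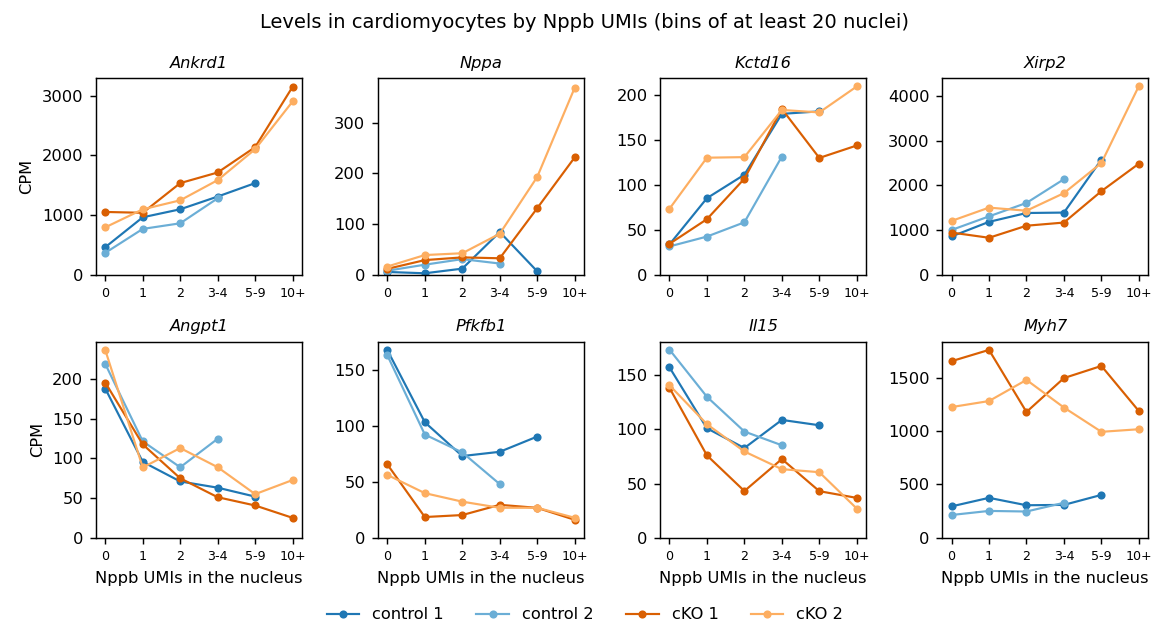
Summed CPM (y axis) of 8 genes in cardiomyocytes grouped by their Nppb UMIs (x axis), one line per library, for groups of at least 20 nuclei. In the cKO nuclei with at least 10 Nppb UMIs, Ankrd1 reaches 3154 and 2908 CPM and Nppa 232 and 369 CPM, and Myh7 is higher in both cKO libraries than in both controls whatever the Nppb count.

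High-Nppb nuclei were next compared between the genotypes, on 1 sum per library. Of 11036 genes tested 89 passed (0.806%), 25 higher in cKO (0.227%) and 64 lower (0.58%), and DESeq2 called 77 (0.698%), 61 of them lower (0.553%). For 41.5% of all genes tested the 2 cKO values lay on 1 side of both control values. Predicted genes with no given name made up 41 of the 89. Without control 1, 153 genes passed. Of the fetal and stress programme 3 of 20 tested rose and 0 fell, at a median of 0.60. Myh7 measured 344 and 392 CPM in control and 1393 and 1064 CPM in cKO members, with no overlap (368 ± 33.9 and 1229 ± 232 CPM, SD, n = 2; log2 fold change 1.74, SE 0.20, edgeR adjusted p = 0.000257). Nppa measured 72.7 and 39.9 CPM in control and 139 and 198 CPM in cKO members (1.62, SE 0.28, adjusted p = 0.00865). Among members with 3 or 4 Nppb UMIs only, Nppa measured 84.1 and 21.9 CPM in control and 32.3 and 80.8 CPM in cKO libraries; the groups overlapped and the log2 fold change, at 0.30, did not pass. Mt2, a metallothionein gene, measured 26.5 and 34.7 against 86.1 and 103 CPM (1.61, adjusted p = 0.0085). Ankrd1 measured 1391 and 1519 against 2330 and 2112 CPM and did not pass (0.61, SE 0.17, adjusted p = 0.138), nor did Acta1 (0.53) or Xirp2 (0.11).

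Counts on the other lists are read against the 0.806% of all genes called, a share at which lists of this length hold few calls or none. Gjc1, the gap junction gene connexin 45, rose by 1.19, a call lost without control 2 (1.11) and without cKO 2 (1.12). Pfkp rose by 1.17 at 72.7 and 79.8 against 170 and 175 CPM. Hif1a, a subunit of the hypoxia-inducible factor, rose by 1.07 and lost its call without control 2 (1.02). Myot (myotilin) fell by 1.04, a call lost without control 2 (-0.86) and without cKO 1 (-0.88). Immediate early genes had 0 calls of 16 tested, fatty acid oxidation 0 of 28, chaperones 0 of 17 and inflammation 0 of 14. Their median log2 fold changes were 1.03, -0.31, 0.02 and 0.41, so the lack of calls does not show equal levels. Markers of fibroblasts, endothelial cells, mural cells and macrophages had 0 calls of 7, 10, 6 and 5 tested, at medians of 0.46, 0.11, -0.50 and 0.90.

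Among single genes, Rrad, a small GTPase that restrains the L-type calcium channel, measured 30.9 and 38.1 CPM in control and 111 and 121 CPM in cKO members (log2 fold change 1.74, SE 0.26, edgeR adjusted p = 0.00267). Nkain2 (1.85), Sbno2 (1.91), the metalloprotease gene Adam19 (1.59), the polyamine enzyme gene Sat1 (1.53) and the phosphatase gene Ppm1e (1.49) rose as well, and the Sat1 call was lost without control 2 (1.47). Other genes rose from near 0. A1cf, an RNA-binding cofactor, had 0 UMIs in control members. Against a limit of 3 counts over that group its ratio was 4.72, and the 95% exact counting interval from the 0 counts began at 3.77. Bin3 had 1 control UMI (ratio 16.4, 95% exact counting interval 2.89 to 653) and Klhl6 had 3 (ratio 9.58, 3.23 to 46.9). Hmgn3 had 5, a ratio of 6.08 (2.57 to 18.9). Calls for these 4 were each lost in at least 1 fit without a library: A1cf without control 2 (adjusted p = 0.0615), Bin3 without control 1 (log2 fold change 3.12), Klhl6 without control 2 (2.57) or cKO 2 (2.70), and Hmgn3 without control 2 (2.13) or cKO 1 (2.46).

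Genes lower in cKO members were led by Kcnip4 (-3.22) and Brinp3 (-3.20). Kcnip4, a potassium channel-interacting protein gene, measured 11.02 and 86.7 CPM in control and 5.84 and 5.15 CPM in cKO members, so it rested on control 2, and without that library it was -0.99 (edgeR adjusted p = 0.765). Mylk4, a myosin light chain kinase gene, measured 238 and 206 against 58.4 and 52.9 CPM, without overlap (-1.99, SE 0.20, adjusted p = 0.000116). Cntn5, a neural adhesion molecule gene, measured 229 and 279 against 54.7 and 71.3 CPM (-2.01, SE 0.21, adjusted p = 0.000131). Fkbp5, a glucocorticoid-induced co-chaperone, measured 245 and 241 against 91.0 and 89.4 CPM (-1.43, SE 0.19, adjusted p = 0.000772). The carboxylesterase gene Ces1d (-1.46) and Cirbil (-1.29) fell too. Ano5, AW822252, Cacnb4, Arrdc2, Adamts7, Hlf, Spata31f1e and Dapk2 fell by 1.41 to 2.45, and each of them lost its call without at least 1 library. Without control 1 these were AW822252 (-2.39), Arrdc2 (-1.37) and Dapk2 (-1.15). Without control 2 they were AW822252 (-2.44), Cacnb4 (-1.91), Spata31f1e (-1.28) and Hlf, a clock-output transcription factor (-0.77). Without cKO 1 they were Ano5 (-2.49), AW822252 (-2.80), Cacnb4 (-2.06) and Adamts7 (-1.74), and without cKO 2 Ano5 (-2.34), AW822252 (-2.02), Cacnb4 (-2.58), Arrdc2 (-1.50) and Adamts7 (-1.58).

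Esr1 and Gh are listed apart because sequence of the oestrogen receptor and of growth hormone is used in tamoxifen-inducible Cre transgenes. Esr1 measured 108 and 81.5 CPM in control and 3039 and 2793 CPM in cKO members (log2 fold change 4.96, SE 0.23, edgeR adjusted p = 1.59e-09). Gh had 3 UMIs over both control libraries' members and 643 over both cKO libraries', a ratio of 29.8 (10.1 to 145). Within the cKO libraries Esr1 was lower in high-Nppb than in zero-Nppb nuclei, with 3036 and 2781 CPM in members of cKO 1 and cKO 2 and 4548 and 3900 CPM in the others. Over all 4 libraries its log2 fold change between the classes was -0.38 (adjusted p = 0.00875), a call lost without cKO 1 (-0.21) and without cKO 2 (-0.28). Gh fell by 0.68, a call lost without cKO 1 (-0.55). Nuclei with 0 Esr1 UMIs made up 36.04% and 33.2% of cKO members and 24.1% and 16.7% of cKO zero-Nppb nuclei. Among nuclei with 0 Esr1 UMIs alone, 424 genes passed between the classes, and all 781 of the original calls that could be tested there kept their direction. These nuclei were part of those that gave the original calls, so kept direction is no separate result.

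Finally, the signed log2 difference between the classes was compared between genotypes through an interaction term. Of 13323 genes tested 20 passed (0.15%), and 10 of the 20 were predicted genes. The difference was higher in cKO for 1 (0.00751%) and lower, or turned negative, for 19 (0.143%). DESeq2 called 3, all lower in cKO (0.0225%). For 37.0% of all genes tested the 2 control log2 ratios lay on 1 side of both cKO ratios. Without control 1, 34 genes passed, and without cKO 1, 13. Ankrd1 rose in members of both genotypes, by less in cKO: the log2 ratio of members to zero-Nppb nuclei was 1.56 and 2.00 in the controls and 1.17 and 1.42 in the cKO libraries (difference -0.50, SE 0.10, edgeR adjusted p = 0.0133). This call was lost without control 2 (-0.25) and without cKO 1 (-0.35). Zero-Nppb nuclei themselves held more Ankrd1 in cKO, as given above. Prkg1 was 0.44 and 0.48 higher in control members and 0.03 and -0.05 in cKO members (difference -0.47, SE 0.07, adjusted p = 0.000281). Slc24a2 had log2 ratios of 2.25 and 3.05 in controls and 1.06 and 0.25 in cKO libraries (difference -2.21, SE 0.33, adjusted p = 0.000281), a call lost without cKO 2 (-1.64). For Nppa the ratios were 3.63 and 2.25 in controls and 3.57 and 3.59 in cKO libraries, a difference of 0.72 that did not pass (adjusted p = 0.775). How many of the 20 passed again depended on the setting: 20 without atrial-like nuclei, 14 with no filter on low counts, 13 without doublet-like nuclei, 13 and 11 with at least 2 and 5 Nppb UMIs, 7 at no more than 1% mitochondrial UMIs and 7 with 3 or 4 Nppb UMIs. After thinning to 2000 UMIs, or without nuclei that held other cell types' markers, it was 0, and with zero-Nppb nuclei matched in UMIs it was 1, Ankrd1.

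**Figure D5:**
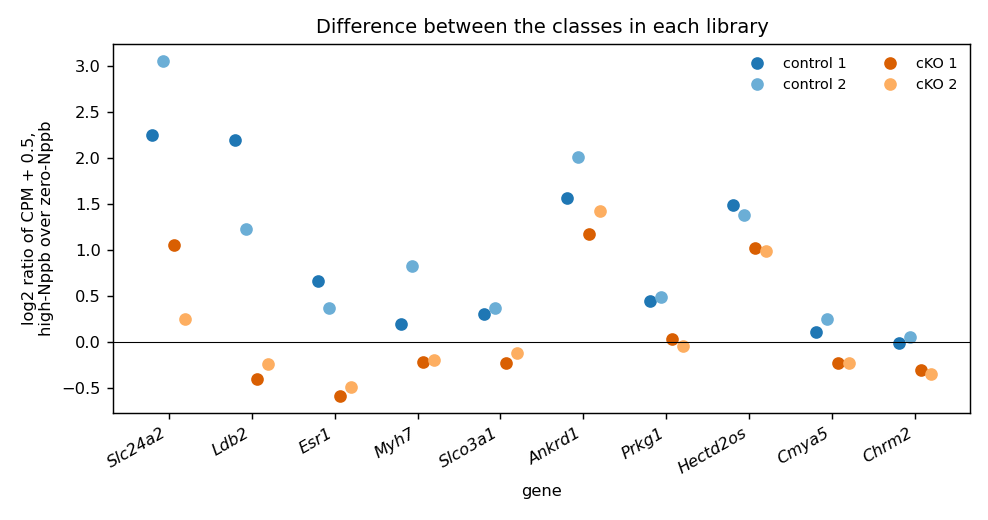
Log2 ratio of CPM + 0.5 in high-Nppb over zero-Nppb cardiomyocytes (y axis) in each library (coloured points) for the 10 named genes whose ratio differed between genotypes (x axis). All control points lie above all cKO points for each gene, for Ankrd1 at 1.56 and 2.00 against 1.17 and 1.42. Genes were named only where the points of the genotypes did not overlap, which held for 37.0% of all 13323 genes tested.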

How the data were processed

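Heart nuclei of 2 control and 2 cKO libraries were tagged with an antibody to nucleoporin 62 and profiled on the BD Rhapsody platform, per the labels' protocols; the protocols mention a neuronal gate, the cell type label reads cardiomyocyte, and the gate used here is not stated. Each library was deposited as a matrix of raw UMI counts, whole numbers by gene and nucleus. The submitters' processing notes name mm10 as the build. For the aligner, the annotation, introns, strand and nucleus calling no source used here gives a setting, so antisense and overlapping genes (such as Hectd2os) may hold each other's reads. Coordinates come from GENCODE M21 (GRCm38), where 27169 of 44628 gene identifiers were found.

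Counts were summed per library and class and tested with edgeR 4.0.16 (R 4.3.3): TMM normalization, filterByExpr, quasi-likelihood test, Benjamini-Hochberg adjustment over all genes tested, threshold 0.05. Nppb, the 7 cardiomyocyte genes and mitochondrially encoded genes were left out. SEs were obtained by dividing the size of the log2 fold change by the root of the F statistic. Single-gene CPM are TMM-scaled in tests; marker sums, values by Nppb UMIs and the levels of Nppb use raw totals. Fits were tested on simulated counts, with a spread that was set and not measured from these libraries. Of changes of 1 on the log2 scale, 94% were recovered between the classes, 48% between genotypes and 30% in the interaction. For changes of 2 the shares were 100%, 95.9% and 80%. A missing call between genotypes or in the interaction therefore does not show equal levels. Scrublet (scanpy 1.11.5) marked 0% to 0.663% of nuclei, so no doublets were removed by default and the top 6% of scores and top 0.5% of UMIs were removed in an alternative. DESeq2 1.42.0 was another. Nothing says that the 2 libraries of a group came from separate preparations. Between genotypes, p-values therefore measure the spread between these libraries. With library as a block, between the classes and in the interaction, they measure how far the class difference varied from library to library.

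The members and gene lists were chosen with earlier results of these data known. Named genes were the 15 highest and 15 lowest log2 fold changes among calls with the same sign in every library or no overlap, and at least 10 CPM in the higher class or group, leaving out predicted genes; list members (at most 6 a list, by p), Nppa, Ankrd1, Esr1 and Gh were named besides, and Myh7, Clu, Rcan1, Dab2 and Pkp2 between the classes, and Acta1, Xirp2 and Pkp2 between the genotypes, were named after their values had been seen. Results for some list members are not reported here.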

Additional observations from a re-analysis of the deposited data

Results flagged for a closer look

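The difference between high-Nppb and zero-Nppb cardiomyocytes was itself unlike in the 2 genotypes for 10 named genes, by edgeR's interaction test with adjustment over 13323 genes. In each of them the log2 difference was smaller, or turned negative, in the cKO libraries, and all 4 libraries were used. Slc24a2 differed by -2.21 between the genotypes and Ldb2 by -2.01. Esr1 differed by -1.05 and Myh7 by -0.75. Summed over members, each was above its zero-Nppb level in both controls and below it in both cKO libraries. In control 2, 46 Esr1 UMIs lay in members with 3 or 4 Nppb UMIs and 1 in those with 5 or more. After thinning, 7.06% of control 2 members, 7.97% of zero-Nppb nuclei and 16.5% of nuclei outside the cardiomyocyte range held an Esr1 UMI. No rise of Esr1 could thus be read in control 2 at this depth. In control 1 these shares were 17.6%, 7.47% and 12.5%. Slco3a1 differed by -0.51, Ankrd1 by -0.50, Prkg1 by -0.47, Hectd2os by -0.43, Cmya5 by -0.41 and Chrm2 by -0.35. Hectd2os is annotated as antisense, and its level in members was above that in zero-Nppb nuclei in all 4 libraries. DESeq2 called 3 genes of this kind, Esr1, Slc24a2 and a predicted gene. Of the 10, Prkg1 was the one that kept its call whichever library was left out. Calls were lost without control 1 for Ldb2 (-1.55) and Esr1 (-0.89), and without control 2 for Myh7 (-0.39), Slco3a1 (-0.46), Ankrd1 (-0.25), Cmya5 (-0.31) and Chrm2 (-0.30). Without cKO 1 they were lost for Ldb2 (-1.93), Slco3a1 (-0.44), Ankrd1 (-0.35), Hectd2os (-0.42), Cmya5 (-0.38) and Chrm2 (-0.35), and without cKO 2 for Slc24a2 (-1.64), Ldb2 (-2.12), Hectd2os (-0.39), Cmya5 (-0.39) and Chrm2 (-0.30).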

How the results depend on the processing

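Between the classes 875 genes passed. The count was 425 with DESeq2, 568 at no more than 1% mitochondrial UMIs, 282 without nuclei holding other cell types' markers, 394 after thinning to 2000 UMIs, 412 with zero-Nppb nuclei matched in UMIs, 83 without the library block and 2 (Ankrd1 and Sorbs2) with at least 8% of UMIs from the 7 genes, where 3, 5, 11 and 11 members were left. Alternatives chosen after seeing the data gave 395 for nuclei with 3 or 4 Nppb UMIs, 301 for control libraries only, 998 for cKO libraries only and 424 for nuclei with 0 Esr1 UMIs. Leaving out a library gave 548 to 910. Of the 875, direction was kept by 794 of 800 tested after thinning, 780 of 784 without other markers and 205 of 255 at 8%. These settings draw on the same cardiomyocytes of the same libraries, so kept direction is no separate result. The cause of the changes was not tested. Between genotypes 89 passed, against 210 with no filter, 43 at 1% mitochondrial UMIs, 21 without other markers, 161 and 33 with at least 2 and 5 Nppb UMIs, 21 after thinning, 2 at 8% and 109 to 153 without a library. The interaction gave 20, against 3 with DESeq2, 34 with no filter, 0 without other markers, 33 with at least 2 Nppb UMIs, 0 after thinning, 2 at 8%, 1 with matched UMIs, 8 with 3 or 4 Nppb UMIs and 13 to 34 without a library. The difference in share kept its direction under the alternatives run, at 17.5 (at least 3 Nppb UMIs after thinning) to 43.7 points, and 35.3 to 43.2 without a library.

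Same-numbered libraries deviated together between genotypes (r = 0.48 over 3152 genes), but the labels name no shared batch and 2 pairs cannot settle pairing; with the replicate number as a block 751 genes passed, including all 89. Some single genes changed sign. Myh7 between the classes was -0.0053 without doublet-like nuclei, -0.22 without other markers, -0.074 after thinning, -0.17 at 8%, -0.035 without the block, -0.21 in cKO libraries only and -0.14 to 0.20 without a library, lowest without control 2. Xirp2 was -0.18 and Prkg1 -0.10 at 8%, Prkg1 was -0.0054 in cKO libraries only and Esr1 was 0.53 in control libraries only. Between genotypes at 8%, Myh7 was -0.27 and Ankrd1 -0.85. In the interaction, Slc24a2 was 1.75 without other markers, Esr1 0.13 with at least 5 Nppb UMIs, Cmya5 0.17 at 8%, and Nppa -0.62 with 3 or 4 Nppb UMIs and -0.10 to 1.32 without a library, lowest without control 2.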
